A study of Mus musculus with 6 samples.

Results

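The 41 genes described here encode the machinery of autophagy and of the lysosome, and they were taken by gene name from a deposited liver expression table of 56534 genes and loci. Of them, 18 encode lysosomal hydrolases, membrane proteins and proton pump subunits, 21 encode autophagy proteins, and Tfeb and Tfe3 encode transcription factors that act on both. All 41 were found, and all had a mean of at least 1 FPKM, the level above which genes were tested. FPKM, the deposited unit, are sequenced fragments scaled to gene length and to the mapped fragments of the library, so levels of different genes can be set side by side. The table holds 3 libraries from livers labelled as CD36-/- and, in the series title, as a hepatocyte-specific knockout (LKO 1 to 3), and 3 from wild-type livers (CON 1 to 3). All animals were C57BL/6 mice on a diet with 60% of its energy from fat for 16 weeks. The labels give no Cre line, floxed allele, age or sex. Nor do they tie each library to an animal of its own, and the p-values therefore rest on a spread between libraries that may be technical in part. In bulk liver, fewer cells of a type and less RNA per cell cannot be told apart.

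Autophagy encloses cytoplasm, organelles or lipid droplets in a double membrane that is delivered to the lysosome. A kinase complex around ULK1 and a lipid kinase complex around Beclin 1 start the membrane, ubiquitin-like conjugation enzymes attach proteins of the LC3 and GABARAP families to it, and receptors such as p62 bring the cargo. Acid hydrolases in the lysosome then digest the content, and in hepatocytes the lysosomal acid lipase releases fatty acids and cholesterol from lipids delivered in this way. TFEB and TFE3 bind CACGTG sequences before many lysosomal and autophagy genes when they enter the nucleus.

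Cd36 (ENSMUSG00000002944), the deleted gene, was at 2.73, 3.70 and 10.2 FPKM in LKO 1, 2 and 3 and at 62.0, 26.5 and 19.7 FPKM in CON 1, 2 and 3. It did not pass over all genes (log2 fold change -2.50, adjusted p = 0.163 in limma). Of the 11104 genes tested, 1 (0.00901%) was lower and 0 (0%) higher in LKO at an adjusted p under 0.05, and 2099 were lower and 361 higher at an unadjusted p under 0.05. All genes had a median log2 fold change of -0.23. After median-ratio scaling, which sets the typical gene to the same level in every library, it was 0.01, with 884 genes lower and 1136 higher. Each library's departure from the gene means was related to gene length, with a Spearman rho of -0.33, -0.30 and 0.21 in LKO 1, 2 and 3 and of 0.27, 0.10 and 0.29 in CON 1, 2 and 3. LKO 3 thus stood with the CON libraries in this trend, and it also had the highest Cd36 of the LKO libraries. Where the log2 fold change of any of the 41 genes moves by over 1.5 times without LKO 3, that value is given as well. Hepatocyte markers were abundant in every library, with 6 markers summing to 42899 to 52842 FPKM in LKO and 46878 to 66729 FPKM in CON, a sum made up mostly of Alb and Apoa1. Of the 6, 5 had a negative log2 fold change, with a median of -0.37, and 3 did after median-ratio scaling, with a median of -0.07. Cps1 was at 193, 159 and 560.4 FPKM in LKO 1, 2 and 3, against 482, 426 and 397 FPKM in CON, and Hnf4a at 73.3, 71.4 and 201.5 FPKM in LKO, against 129, 175 and 161 FPKM in CON. Both were thus low in LKO 1 and LKO 2 and highest in LKO 3. Alb had a log2 fold change of -0.70 and Apoa1 one of 0.72. The 6 endothelial markers summed to 39.5 to 55.9 FPKM in LKO and 30.7 to 88.3 FPKM in CON, with 6 negative and a median of -0.30 (3 and -0.03 after the scaling). The 6 stellate cell markers summed to 77.3 to 111.5 FPKM in LKO and 81.7 to 85.5 FPKM in CON. Of these, 2 were negative, with a median of 0.17. The 5 cholangiocyte markers summed to 34.1 to 74.9 FPKM in LKO and 29.4 to 51.5 FPKM in CON. Of the 3 tested, 0 were negative, with a median of 0.16. Both sums were lower in LKO 3 than in LKO 1 and LKO 2. Monocyte and neutrophil markers summed to 4.28 to 11.4 FPKM and lymphocyte markers to 2.02 to 4.42 FPKM across libraries. The part of such shifts in the values below was not tested.

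The TFEB family binds the sequence CACGTG, and some promoters of these genes hold it. The stretches below are the 250 bases before the start site of 5 genes, 5′ to 3′ in the gene's direction, with every CACGTG in capitals. They are shown because they hold the motif and stand for a protease, a channel, a membrane glycoprotein, a pump subunit and an LC3-conjugating enzyme. Sequences and coordinates are RefSeq's on GRCm38.p6, a later build than the mm9 of the submitters' notes.
Ctsd (chr7:142387828-142388077, minus strand): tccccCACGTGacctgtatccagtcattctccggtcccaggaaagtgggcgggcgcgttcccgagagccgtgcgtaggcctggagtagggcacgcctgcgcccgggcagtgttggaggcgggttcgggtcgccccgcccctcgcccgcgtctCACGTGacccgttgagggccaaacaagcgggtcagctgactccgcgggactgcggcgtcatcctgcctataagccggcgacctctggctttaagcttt
Mcoln1 (chr8:3500269-3500518, plus strand): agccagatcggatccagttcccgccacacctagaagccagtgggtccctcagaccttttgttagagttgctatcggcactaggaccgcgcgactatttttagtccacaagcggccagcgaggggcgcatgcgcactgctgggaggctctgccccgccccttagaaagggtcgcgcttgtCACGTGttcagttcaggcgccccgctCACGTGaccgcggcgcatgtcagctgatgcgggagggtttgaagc
Lamp1 (chr8:13158911-13159160, plus strand): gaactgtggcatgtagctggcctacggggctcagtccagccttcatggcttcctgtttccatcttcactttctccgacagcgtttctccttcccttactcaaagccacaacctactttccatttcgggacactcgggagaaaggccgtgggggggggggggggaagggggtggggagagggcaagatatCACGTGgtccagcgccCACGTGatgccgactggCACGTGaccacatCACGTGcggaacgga
Atp6v1a (chr16:44139260-44139509, minus strand): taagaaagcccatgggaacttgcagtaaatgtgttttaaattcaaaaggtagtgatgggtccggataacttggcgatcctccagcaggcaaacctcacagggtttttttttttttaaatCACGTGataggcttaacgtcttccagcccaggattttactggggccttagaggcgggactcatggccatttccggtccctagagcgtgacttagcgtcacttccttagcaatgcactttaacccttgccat
Atg3 (chr16:45158579-45158828, plus strand): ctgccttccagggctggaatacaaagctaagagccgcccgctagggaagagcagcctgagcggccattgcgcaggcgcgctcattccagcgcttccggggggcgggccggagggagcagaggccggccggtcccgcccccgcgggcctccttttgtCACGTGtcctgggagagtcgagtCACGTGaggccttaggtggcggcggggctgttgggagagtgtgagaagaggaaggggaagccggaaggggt
Lamp1 held 4 copies, which begin 61, 45, 28 and 15 bases before the start. Ctsd held 2, at 245 and 98 bases before it, Mcoln1 2, at 71 and 45, Atg3 2, at 94 and 71, and Atp6v1a 1, at 131.

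In windows from 250 bases before to 50 bases after the start, searched on both strands, CACGTG was present for 7 of 14 lysosome genes with a RefSeq promoter and for 5 of 16 autophagy genes. Among 8141 tested genes with a promoter, 994 (12.2%) held it. The longer TCACGTGA, which contains it, was found for 5 of the 14 lysosome genes, for 1 of the 16 autophagy genes and for 188 (2.31%) of the tested genes. Besides those printed, the motif was present for Ctsa, Ctsl and Atp6v0d1 among lysosome genes and for Atg5, Atg7, Atg14 and Bnip3 among autophagy genes. The promoters of Tfeb and Tfe3 did not hold it. Ctsb, Ctsh, Npc1, Atp6v1h, Becn1, Pik3c3, Atg12, Atg16l1 and Map1lc3a had no entry. The 7 lysosome genes with the motif had a median log2 fold change of -0.55 between LKO and CON, and the 7 without it had -0.54. For autophagy genes it was -0.38 with the motif (5 genes) and -0.28 without it (11 genes). Over the genes tested it was -0.27 with the motif and -0.24 without it. A match of letters is a description and shows no binding.

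Tfeb (ENSMUSG00000023990) itself was at 4.12, 3.51 and 3.31 FPKM in LKO 1, 2 and 3, against 3.34, 3.84 and 4.38 FPKM in CON 1, 2 and 3. The groups overlapped, with a log2 fold change of -0.06 (SE 0.18, adjusted p = 0.845 in limma) that was -0.0088 without LKO 3 and turned to 0.18 after median-ratio scaling. Tfe3 (ENSMUSG00000000134) was at 7.30, 6.81 and 12.3 FPKM in LKO and at 7.91, 7.59 and 9.11 FPKM in CON. LKO 1 and LKO 2 lay below the CON range and LKO 3 above it. The log2 fold change of 0.05 (SE 0.24, adjusted p = 0.902 in limma) was -0.19 without LKO 3. It was -0.20 when mitochondrial genes were taken out and all libraries rescaled to the same FPKM total, and 0.32 after median-ratio scaling. With the length trend removed it was 0.39 with an unadjusted p of 0.0483 in limma, where 8.2% of all genes were higher. These factors are controlled largely by phosphorylation and entry into the nucleus, which RNA levels do not measure.

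Lysosome genes as a group had lower values in LKO than in CON. Of 18, 17 had a log2 fold change below 0, against 71.6% of all genes. After median-ratio scaling 14 did, against 48.9% of all genes, and Ctss, Ctsz and Atp6v0d1 turned positive. As deposited, 15 were under the all-gene median, as were 15 after that scaling. Their median was -0.55 against -0.23 for all genes, and -0.25 against 0.01 after the scaling. None passed at an adjusted p under 0.05 (limma, 0.179 to 0.98), where 1 of 11104 genes did. At an unadjusted p under 0.05, 10 of 18 (55.6%) were lower, against 18.9% of all genes, and 0 were higher, against 3.25%. The groups did not overlap for 11 of 18, all lower in LKO, against 24.3% of all genes in that direction and 3.92% in the other. The count of 10 was 13 without LKO 3, where 33% of all genes were lower. It was 5 without LKO 1 or LKO 2 (9.94% and 9.26% of all genes), 4 without CON 1 (8.41%), 6 without CON 2 (14.5%) and 8 without CON 3 (12.5%). After quantile normalization it was 7 (9.68% of all genes), and after rescaling to a common total without mitochondrial genes 14 (30.1%). It was 1 after median-ratio scaling, where 7.96% of all genes were lower and 10.2% higher, and 3 with the length trend removed, where 1 lysosome gene was higher and 9.11% of all genes were lower and 8.2% higher.

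**Figure D1:**
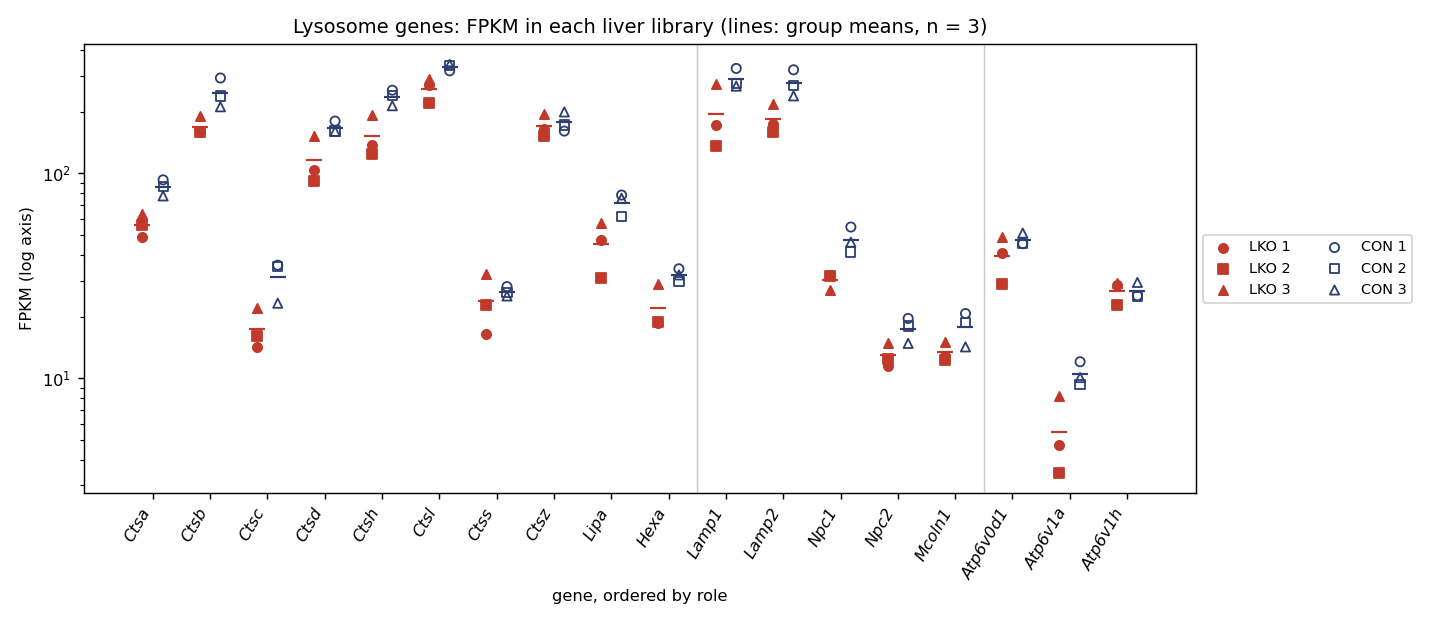
FPKM on a log axis for the 18 lysosome genes, with filled red symbols for LKO 1 to 3, open blue symbols for CON 1 to 3, lines for group means (n = 3 libraries each) and grey dividers between hydrolases, membrane proteins and pump subunits. For 11 genes every LKO library lies below every CON library, and for the remaining 7, Ctss, Ctsz and Atp6v1h among them, the groups overlap.

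The aspartic protease cathepsin D, Ctsd (ENSMUSG00000007891), was at 103, 92.3 and 153 FPKM in LKO 1, 2 and 3, against 180.0, 161 and 160.4 FPKM in CON 1, 2 and 3. LKO 1 and LKO 2 lay well below CON and LKO 3 just under its lowest library. The log2 fold change was -0.55 (SE 0.22, adjusted p = 0.212 in limma). Cathepsin B, Ctsb (ENSMUSG00000021939), a cysteine protease, was at 159, 158.5 and 190.3 FPKM in LKO and at 292, 239 and 211 FPKM in CON, without overlap. Its log2 fold change was -0.54 (SE 0.19, adjusted p = 0.196). Exons of Fdft1, on the opposite strand and at a mean of 25.9 FPKM, cover 12.8% of the exon bases of Ctsb in GENCODE M21. The sources used here do not say whether counting used strand, so reads of such pairs may be shared. Of the exon bases of Ctsa, opposite-strand partners above 1 FPKM covered 10.5% (Pltp) and 6.87% (Neurl2). Such partners also covered 9.31% of those of Lamp1 (Grtp1), 4.52% of those of Npc1 (Rmc1) and 0.694% of those of Ctsz (Nelfcd).

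Cathepsin H, Ctsh (ENSMUSG00000032359), an aminopeptidase, was at 138, 124 and 193 FPKM in LKO, against 255, 239 and 214 FPKM in CON. The groups did not overlap (log2 fold change -0.66, SE 0.21, adjusted p = 0.186 in limma). Cathepsin C, Ctsc (ENSMUSG00000030560), which activates serine proteases of immune cells, was at 14.2, 16.1 and 22.0 FPKM in LKO and 35.6, 35.1 and 23.3 FPKM in CON. Here LKO 3 and CON 3 nearly met, and the log2 fold change was -0.81 (SE 0.24, adjusted p = 0.179). The protective protein cathepsin A, Ctsa (ENSMUSG00000017760), which stabilises lysosomal glycosidases, was at 48.7, 56.1 and 63.5 FPKM in LKO, against 93.0, 86.3 and 77.7 FPKM in CON. Its log2 fold change was -0.61 (SE 0.18, adjusted p = 0.179), again with no overlap.

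The other cathepsins were closer. Ctsl, an abundant endopeptidase of the hepatocyte lysosome, averaged 259 ± 36.0 FPKM in LKO and 331 ± 12.4 FPKM in CON (SD, n = 3 each), and its log2 fold change was -0.36. Ctsz averaged 171 ± 22.6 and 178 ± 19.9 FPKM in LKO and CON (-0.06), and turned to 0.24 after median-ratio scaling. Ctss, which is prominent in macrophages, averaged 23.9 ± 7.91 and 26.5 ± 1.42 FPKM in LKO and CON (-0.19, and 0.10 after the scaling). Its LKO libraries ran from 16.5 FPKM in LKO 1 to 32.2 FPKM in LKO 3, and without LKO 3 it was at -0.43 and Ctsz at -0.16. The 10 markers of Kupffer cells and macrophages, none of which was at 0, also summed lowest in LKO 1, at 179.5 FPKM. Their sum was 347 and 297 FPKM in LKO 2 and LKO 3 and 221 to 315 FPKM in CON, with 6 of 10 log2 fold changes negative and a median of -0.08, which was 0.18 after the scaling. The part of these cells in the cathepsin values was not tested.

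Lysosomal acid lipase, Lipa (ENSMUSG00000024781), hydrolyses cholesteryl esters and triglycerides in the lysosome. It was at 47.3, 30.9 and 57.4 FPKM in LKO 1, 2 and 3, against 78.4, 61.8 and 75.5 FPKM in CON 1, 2 and 3. The groups were separate, with LKO 2 the lowest library (log2 fold change -0.69, SE 0.25, adjusted p = 0.196 in limma). Hexa, the alpha subunit of the hexosaminidase that degrades gangliosides, averaged 22.1 ± 5.94 FPKM in LKO and 31.9 ± 2.35 FPKM in CON (SD, n = 3 each). Its LKO 3 value of 29.0 FPKM came close to the lowest CON value, 29.5 FPKM.

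Among membrane and lipid transport proteins, Npc1 (ENSMUSG00000024413), which moves cholesterol out of the lysosome, had the smallest unadjusted p of the lysosome genes. It was at 31.9, 31.7 and 26.8 FPKM in LKO, against 54.7, 41.3 and 46.2 FPKM in CON. The groups were separate, and here LKO 3 was the lowest of all libraries (log2 fold change -0.63, SE 0.18, adjusted p = 0.179 in limma). Its luminal partner Npc2, which hands cholesterol to it, averaged 13.0 ± 1.72 and 17.5 ± 2.44 FPKM in LKO and CON (-0.40), with LKO 3 just above CON 3. Lamp1 (ENSMUSG00000031447), the main glycoprotein of the lysosomal membrane, was at 173, 136 and 274 FPKM in LKO, against 325, 274 and 267 FPKM in CON. LKO 3 thus lay within the CON range, and the log2 fold change of -0.63 (SE 0.27, adjusted p = 0.226) was -0.91 without it. Lamp2, needed for fusion of autophagosomes and for chaperone-mediated autophagy, averaged 184 ± 30.8 and 276 ± 41.3 FPKM in LKO and CON without overlap (-0.59). The calcium channel gene Mcoln1, whose product acts upstream of TFEB, averaged 13.4 ± 1.43 and 17.9 ± 3.31 FPKM (-0.38), and its groups overlapped.

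The vacuolar proton pump that acidifies the lysosome gave unlike values for its 3 subunits. Atp6v1a (ENSMUSG00000052459), the catalytic subunit, was at 4.74, 3.46 and 8.23 FPKM in LKO 1, 2 and 3, against 12.0, 9.30 and 10.1 FPKM in CON 1, 2 and 3. It had the most negative value of the 41 genes, with no overlap (log2 fold change -0.88, SE 0.28, adjusted p = 0.183 in limma). It was also the 1 lysosome gene with an unadjusted p under 0.05 after median-ratio scaling (log2 fold change -0.63). Atp6v0d1, of the membrane part, averaged 39.5 ± 9.96 and 47.3 ± 3.32 FPKM in LKO and CON (-0.28, with 0.01 after the scaling and -0.45 without LKO 3). Atp6v1h, a regulatory subunit, averaged 26.8 ± 3.46 and 26.6 ± 2.44 FPKM in LKO and CON (0.01, with 0.30 after the scaling and -0.05 without LKO 3). After rescaling to a common total without mitochondrial genes it was at -0.27, where the median of all genes was -0.46.

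**Figure D2:**
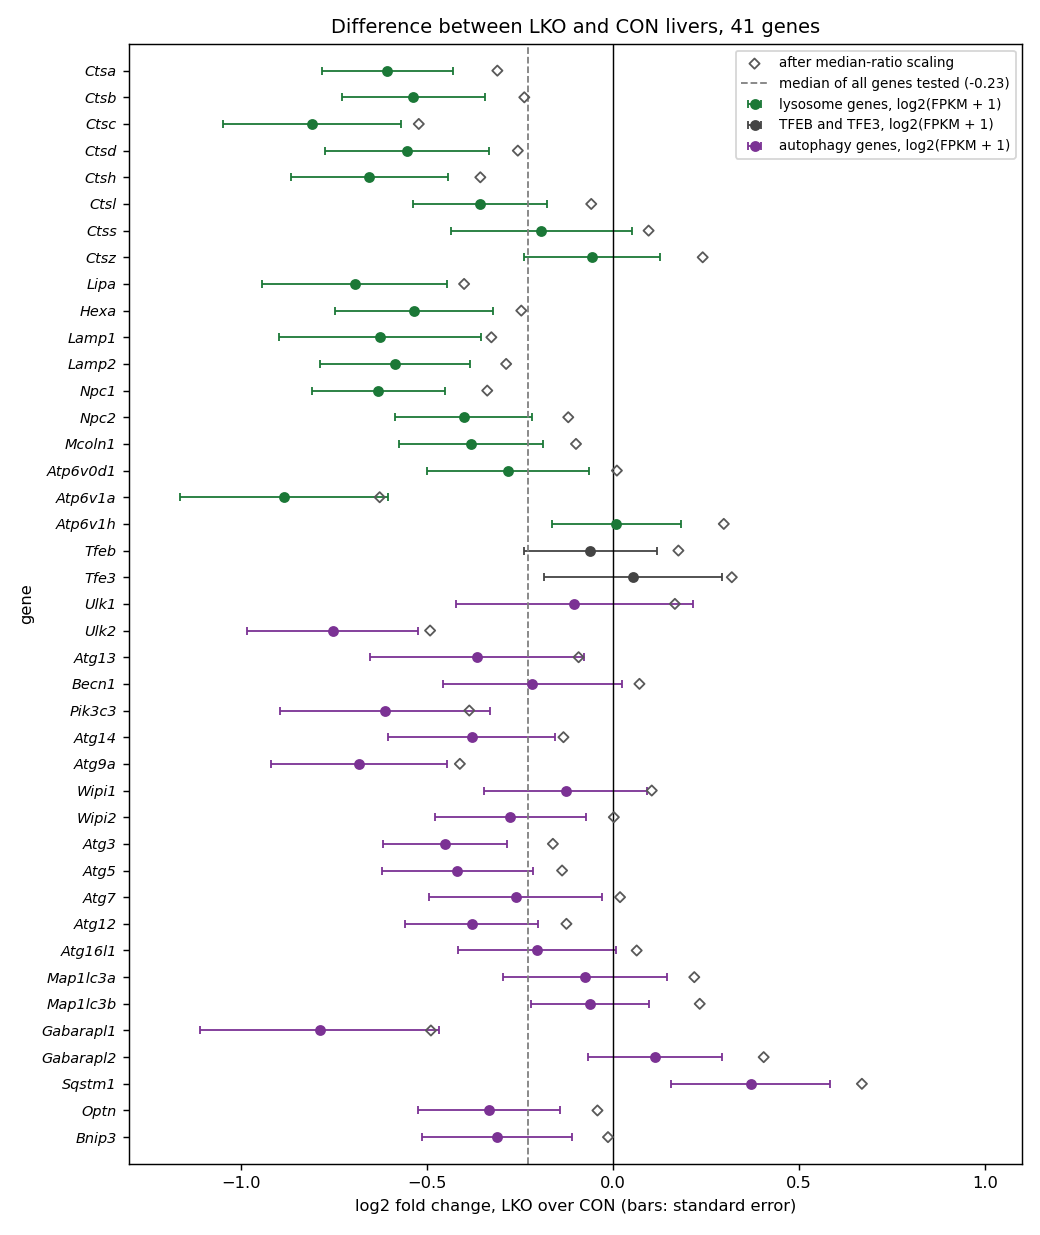
Log2 fold change of LKO over CON for all 41 genes in order of role (circles with standard error bars, on log2(FPKM + 1); green lysosome, grey TFEB and TFE3, purple autophagy), with open diamonds for the value after median-ratio scaling and a dashed line at the median of all genes tested, -0.23. Scaling moves the values to the right, and the circles of 15 of 18 lysosome genes and 13 of 21 autophagy genes lie left of the dashed line.

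Autophagy genes differed less between the groups. Of 21, 19 had a log2 fold change below 0, against 71.6% of all genes, and 11 did after median-ratio scaling, against 48.9%. Their median of -0.31 lay near the -0.23 of all genes, and 13 of 21 were below it. None passed at an adjusted p under 0.05 (limma, 0.18 to 0.853). At an unadjusted p under 0.05, 4 were lower, a share of 19% against 18.9% of all genes, and 0 were higher. The groups did not overlap for 5 of 21, against 24.3% of all genes. The count of 4 was 13 without LKO 3, where 33% of all genes were lower. It was 1 without LKO 1, LKO 2, CON 1 or CON 3, where 9.94%, 9.26%, 8.41% and 12.5% of all genes were lower. Without CON 2 it was 3 (14.3%), against 14.5% of all genes. After median-ratio scaling it was 1, against 7.96%. Rescaling to a common total without mitochondrial genes gave 7 (33.3%), against 30.1%. The difference between the lysosome and the autophagy genes was not tested.

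**Figure D3:**
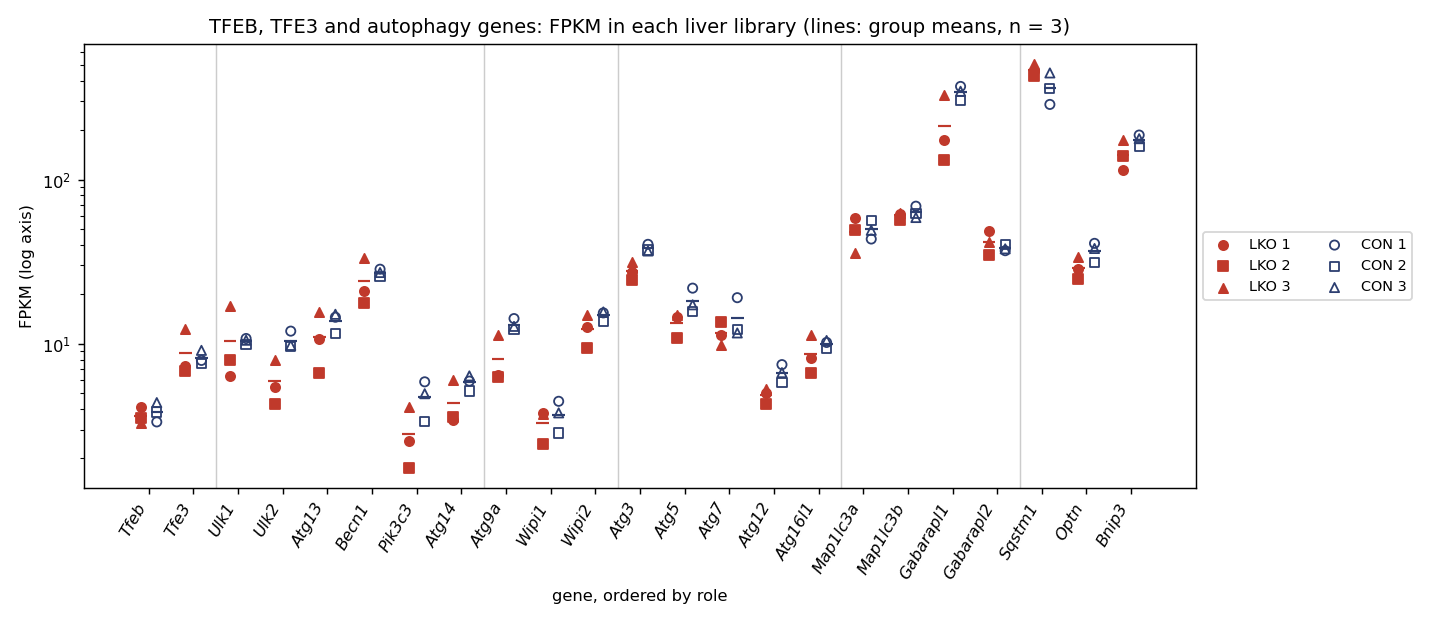
FPKM on a log axis for Tfeb, Tfe3 and the 21 autophagy genes, with filled red symbols for LKO 1 to 3, open blue symbols for CON 1 to 3, lines for group means (n = 3 libraries each) and dividers between initiation, membrane supply, conjugation, the LC3 and GABARAP family and cargo receptors. Gabarapl1 and Ulk1 show LKO 3 far above LKO 1 and LKO 2, and Sqstm1 lies higher in all 3 LKO libraries than in CON 1 and CON 2.

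Among the initiation genes, the kinases Ulk1 and Ulk2 differed in pattern. Ulk1 (ENSMUSG00000029512) was at 6.39, 7.95 and 17.0 FPKM in LKO 1, 2 and 3, against 10.8, 9.91 and 10.5 FPKM in CON 1, 2 and 3. LKO 1 and LKO 2 lay below the narrow CON range and LKO 3 above it, so the log2 fold change of -0.10 (SE 0.32, adjusted p = 0.853 in limma) was -0.49 without LKO 3 and 0.17 after median-ratio scaling. Ulk2 (ENSMUSG00000004798) was at 5.47, 4.31 and 7.98 FPKM in LKO and at 11.9, 9.62 and 9.77 FPKM in CON. Its groups did not overlap (log2 fold change -0.75, SE 0.23, adjusted p = 0.18). After the scaling it was at -0.49 with an unadjusted p of 0.0223 in limma, where 7.96% of all genes were lower.

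The lipid kinase Pik3c3 (ENSMUSG00000033628), which makes the phosphoinositide that marks the new membrane, was at 2.54, 1.75 and 4.13 FPKM in LKO, against 5.86, 3.37 and 4.96 FPKM in CON. LKO 3 lay within the CON range (log2 fold change -0.61, SE 0.28, adjusted p = 0.24 in limma), and the value was -0.85 without it. Its partners were closer to the median of all genes. Becn1 averaged 24.0 ± 8.17 and 27.1 ± 1.41 FPKM in LKO and CON (-0.22, and 0.07 after median-ratio scaling), and Atg14, which directs the complex to autophagy, 4.34 ± 1.43 and 5.81 ± 0.617 FPKM (-0.38). Atg13, which links ULK1 to its complex, averaged 10.9 ± 4.45 and 13.7 ± 1.92 FPKM (-0.37). In Becn1 and Atg13 the highest of all 6 libraries was LKO 3, and without it Becn1 was at -0.47, Atg13 at -0.64 and Atg14 at -0.59.

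Atg9a (ENSMUSG00000033124), the membrane protein of vesicles that seed the autophagosome, was at 6.49, 6.29 and 11.3 FPKM in LKO, against 14.2, 12.3 and 12.8 FPKM in CON. Every LKO library lay below CON (log2 fold change -0.68, SE 0.24, adjusted p = 0.191 in limma). A transcript on the same strand, Gm29253, shares 31.8% of its exon bases and was at a mean of 4.58 FPKM, so the value of Atg9a is uncertain. The phosphoinositide-binding proteins Wipi1 and Wipi2 averaged 3.31 ± 0.745 and 12.3 ± 2.78 FPKM in LKO, against 3.70 ± 0.804 and 14.9 ± 1.11 FPKM in CON. Their log2 fold changes were -0.13 and -0.28, with 0.10 and 0.0019 after median-ratio scaling and -0.20 and -0.42 without LKO 3.

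All 5 conjugation genes had negative values, of which Atg7 and Atg16l1 turned positive after median-ratio scaling. Atg3 (ENSMUSG00000022663), the enzyme that joins LC3 to lipid, was at 27.2, 24.4 and 31.4 FPKM in LKO, against 40.3, 37.3 and 36.7 FPKM in CON. The groups were separate and the CON values close together (log2 fold change -0.45, SE 0.17, adjusted p = 0.198 in limma). Atg5 averaged 13.4 ± 2.27 and 18.2 ± 3.18 FPKM in LKO and CON (-0.42). Atg12, the ubiquitin-like protein joined to ATG5, averaged 4.86 ± 0.533 and 6.64 ± 0.835 FPKM (-0.38), and neither gene's groups overlapped. Atg7, the activating enzyme, averaged 11.6 ± 1.90 and 14.3 ± 4.12 FPKM (-0.26), and Atg16l1, the scaffold of the ATG5 complex, 8.71 ± 2.39 and 9.98 ± 0.60 FPKM (-0.21). Without LKO 3 they were at -0.16 and -0.39.

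Of the proteins that are joined to the autophagosome membrane, Gabarapl1 (ENSMUSG00000030161) stood apart from its relatives. It was at 174, 132 and 325 FPKM in LKO 1, 2 and 3, against 369, 304 and 345 FPKM in CON 1, 2 and 3. LKO 1 and LKO 2 were far below CON while LKO 3 lay inside its range. The log2 fold change of -0.79 (SE 0.32, adjusted p = 0.215 in limma) was -1.15 without LKO 3 and -0.51 without LKO 2. Map1lc3b (ENSMUSG00000031812), which encodes the LC3 form most used to count autophagosomes, was at 61.8, 56.8 and 62.8 FPKM in LKO and at 68.8, 62.3 and 58.7 FPKM in CON. Its groups overlapped (-0.06, SE 0.16, adjusted p = 0.818), and the value was 0.23 after median-ratio scaling. Map1lc3a averaged 47.7 ± 11.4 and 49.6 ± 6.52 FPKM in LKO and CON (-0.08, with 0.22 after the scaling and 0.12 without LKO 3). Gabarapl2 averaged 41.8 ± 7.04 and 38.3 ± 1.72 FPKM in LKO and CON (0.11). After rescaling to a common total without mitochondrial genes it was at -0.17. After median-ratio scaling it was at 0.40 with an unadjusted p of 0.0401 in limma (adjusted p = 0.265), where 10.2% of all genes were higher.

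The cargo receptor gene Sqstm1 (ENSMUSG00000015837), which encodes p62, was the most abundant of the 41 genes and had the most positive value. It was at 460.4, 424 and 504 FPKM in LKO 1, 2 and 3, against 287, 357 and 446 FPKM in CON 1, 2 and 3. CON 3 lay within the LKO range and CON 1 and CON 2 below it. The log2 fold change was 0.37 (SE 0.21, adjusted p = 0.313 in limma). After median-ratio scaling it was 0.67 with an unadjusted p of 0.0208 in limma (adjusted p = 0.258), where 10.2% of all genes were higher. The value stayed positive in each of the 15 alternative settings. Exons of Mrnip, on the opposite strand and at a mean of 2.80 FPKM, cover 17.3% of those of Sqstm1. Optn, a receptor for ubiquitin-coated cargo, averaged 29.0 ± 4.55 and 36.7 ± 4.95 FPKM in LKO and CON (-0.33). Bnip3, a receptor on mitochondria, averaged 142 ± 29.8 and 174 ± 13.9 FPKM (-0.31).

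The 3 LKO libraries were not alike in these genes. The median deviation of the lysosome genes from their CON means was -0.64, -0.66 and -0.22 on the log2(FPKM + 1) scale in LKO 1, 2 and 3, against -0.21, -0.38 and -0.11 for all genes in the same libraries. For autophagy genes it was -0.34, -0.54 and -0.01 in LKO 1, 2 and 3. LKO 3 was the highest of the LKO libraries for 17 of 18 lysosome genes and for 17 of 21 autophagy genes, against 50.9% of all genes tested. LKO 1 and LKO 2 both lay below all CON libraries for 16 of 18 lysosome and 15 of 21 autophagy genes, against 46.6% of all genes. Relative to all genes, the lysosome median remained below 0 in each LKO library, at -0.43, -0.27 and -0.11, against 0.05, 0.05 and -0.07 in CON 1, 2 and 3. That of the autophagy genes was at -0.13, -0.16 and 0.10 in LKO, above all genes in LKO 3, against 0.02, -0.03 and 0.01 in CON.

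**Figure D4:**
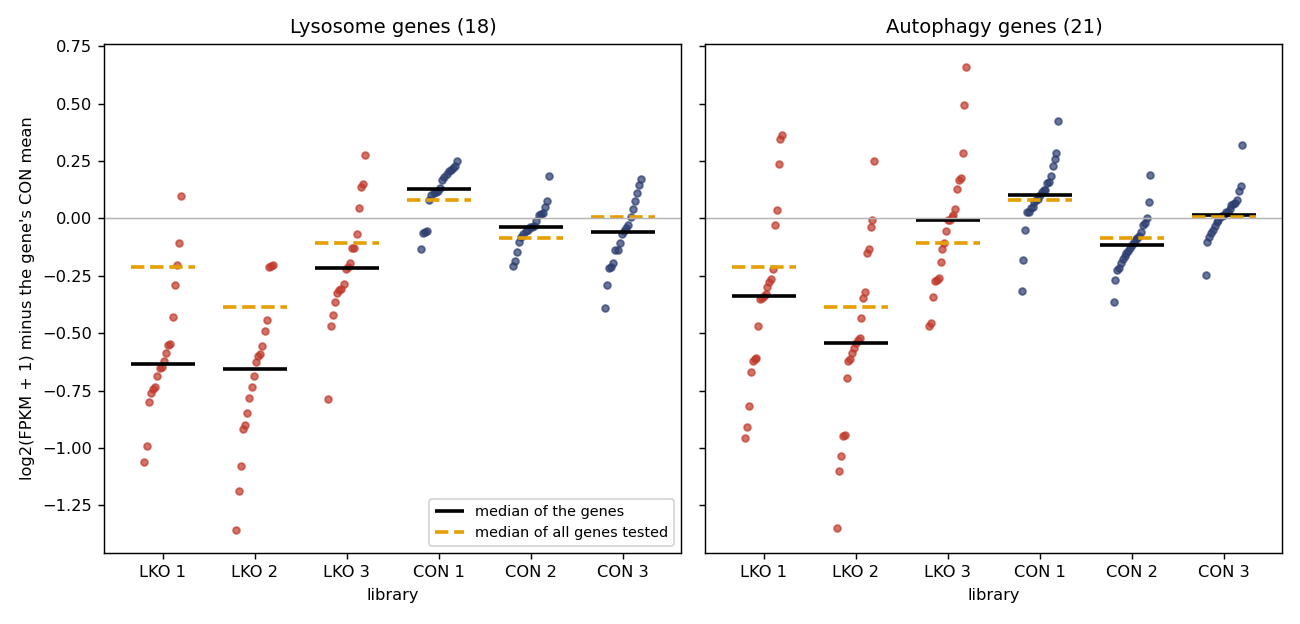
Log2(FPKM + 1) of each gene minus its CON mean in the 6 libraries (1 point per gene, red LKO and blue CON), for 18 lysosome genes on the left and 21 autophagy genes on the right, with the median of the genes in black and that of all genes tested dashed in orange. The lysosome medians of -0.64 and -0.66 in LKO 1 and LKO 2 lie below those of all genes, and LKO 3 lies nearer to CON.

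Without LKO 3, 9 of 18 lysosome and 6 of 21 autophagy genes passed lower at an adjusted p under 0.05 (limma), where 19% of all genes were lower and 4.6% higher. The lysosome genes were Atp6v1a, Ctsh, Ctsd, Hexa, Lamp1, Ctsc, Ctsa, Lipa and Lamp2, with adjusted p-values of 0.0184 to 0.0357. The autophagy genes were Gabarapl1, Atg9a, Ulk2, Atg3, Atg14 and Pik3c3, with 0.0175 to 0.0481. In that comparison the group and the length trend of the libraries coincide and cannot be told apart. With the length trend removed in all 6 libraries, 17 of 18 lysosome genes were negative and 12 of 21 autophagy genes, against 51.6% of all genes.

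Other genes of the same compartments were read from lists chosen for their function, with earlier results of these data known. Their counts stand against 71.6% of all genes with a negative value as deposited, 48.9% after median-ratio scaling, and 18.9% lower and 3.25% higher at an unadjusted p under 0.05. Of 33 further lysosomal hydrolases and their activators, 32 were tested, and the log2 fold change was below 0 for 30 as deposited and for 28 once scaled by median ratios. Their median was -0.47, 18 (56.2%) were lower and 0 higher at an unadjusted p under 0.05, and 0 passed over all genes. After the scaling 7 were lower and 1 higher, where 7.96% of all genes were lower and 10.2% higher. The smallest unadjusted p belonged to the sulfatase gene Arsa (8.53 FPKM in LKO and 20.1 FPKM in CON, log2 fold change -1.17, adjusted p = 0.163 in limma), the sialidase gene Neu1 (-0.58) and the cathepsin gene Ctso (-0.98). Of 15 tested membrane proteins, 12 (80.0%) were negative, 10 after the scaling, with a median of -0.39, and 5 (33.3%) were lower. They included the cystine exporter gene Ctns (-0.64), Mfsd1 (-1.26) and Scarb2 (-0.90), which carries glucocerebrosidase to the lysosome.

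The 13 further proton pump genes tested had a median of -0.13, above that of all genes, with 8 (61.5%) negative and 5 after median-ratio scaling. Atp6v1b2 (-0.93), Atp6ap1 (-0.61) and Atp6v1c1 (-0.53) had the smallest p of them, and 2 (15.4%) were lower at an unadjusted p under 0.05. Of 30 further autophagy genes, 28 (93.3%) were negative, 18 after the scaling. Their median was -0.31, and 7 were lower at an unadjusted p under 0.05, a share of 23.3% near the 18.9% of all genes, with 1 higher. Ambra1 (-0.84), a partner of Beclin 1, the lipid transfer protein gene Atg2a (-1.28) and Trp53inp1 (-1.39) led them. Of 18 genes of mTORC1, its regulators and Zkscan3, a repressor of lysosome and autophagy genes, 15 (83.3%) were negative, 9 after the scaling. Their median of -0.28 and the 3 lower (16.7%) were near the values of all genes. The folliculin partner gene Fnip2 was at 0.88, 0.99 and 1.58 FPKM in LKO, against 4.60, 3.13 and 4.64 FPKM in CON (-1.25, adjusted p = 0.163 in limma). Tsc1 (-0.64) and Rragc (-0.58) followed.

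**Figure D5:**
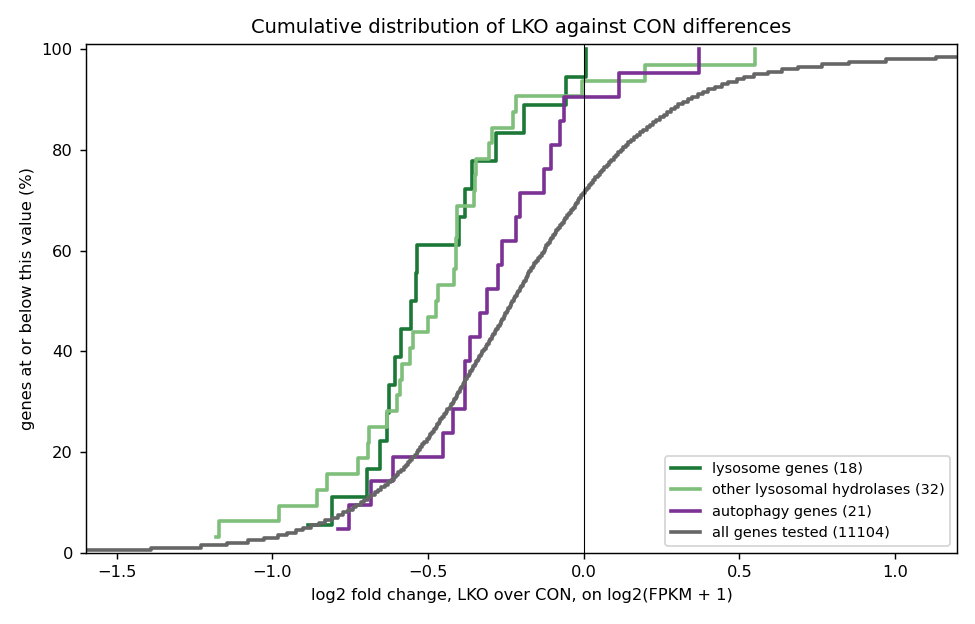
Share of genes (percent, vertical axis) at or below each log2 fold change of LKO over CON (horizontal axis) for 18 lysosome genes, 32 other lysosomal hydrolases, 21 autophagy genes and all 11104 genes tested, as deposited and before any scaling between libraries. The lysosome and hydrolase curves, with medians of -0.55 and -0.47, run left of the curve of all genes, and the autophagy curve has a median of -0.31.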

How the data were processed

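Liver RNA was measured in 3 LKO and 3 CON libraries. The authors deposited FPKM per gene and library, rounded to 2 decimals, with a gene length, per the file headers. Per the submitters' processing notes, HISAT2 and StringTie were used with build mm9. The sources used here give no versions, annotation or strand setting. FPKM times length did not fall on whole multiples of 1 step, so no count model was used and read depth is unknown.

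The file held 56536 lines below its header, of which 2 continued an annotation text and held no values. Genes averaging 1 FPKM or more across the 6 libraries were put on a log2(FPKM + 1) scale. The test was that of limma 3.58.1 under R 4.3.3, with group as a single two-sided contrast and a prior variance that follows the mean. Benjamini-Hochberg adjustment covered 11104 genes, with a threshold of 0.05. Fold changes on this scale understate the change of low genes. SDs are between a group's libraries, in FPKM, and SEs are limma's. The steps were run on simulated data with planted changes larger than those of any member, in independent libraries without a length trend. That run therefore does not show how well changes of the size seen here are found. Members and lists were chosen with earlier results of these data known. Values in each library and full statistics are given for Tfeb, Tfe3, Lamp1, Ctsb, Ctsd, Lipa, Sqstm1, Map1lc3b and Ulk1 and for the 5 lysosome and 5 autophagy genes with the smallest unadjusted p, and up to 3 genes are named of each further list. Alternatives were a pseudocount of 0.1, no filter or a filter at 5 FPKM, 3 scalings, removal of a loess trend with gene length (span 0.5), no mean-variance trend, the library number as a block, and leaving out each library. The scalings were median-ratio, quantile, and rescaling to a common FPKM total after mitochondrial genes were taken out. As deposited, totals were 1179405, 1271880 and 959442 FPKM in LKO 1, 2 and 3. In CON 1, 2 and 3 they were 831928, 928647 and 976871 FPKM. Mitochondrial genes held 4.138% to 10.15% of the total in LKO and 3.875% to 6.183% in CON. Their removal and the common total were not tested apart. Exon overlaps come from GENCODE M21 and promoters from RefSeq (GRCm38.p6).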

Additional observations from a re-analysis of the deposited data

How the results depend on the processing

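Under the 15 alternative settings, 14 of 18 lysosome genes and 12 of 21 autophagy genes kept the sign of their log2 fold change, and 0 members passed at an adjusted p under 0.05 except without LKO 3, where 15 did. For lysosome genes, the median less the all-gene median was -0.32, or -0.52 with no filter. It ran from -0.40 to -0.25 when 1 library was left out. For autophagy genes the same difference was -0.08, with -0.29 under no filter and -0.17 to -0.02 when 1 library was left out.

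Over all genes, 1 was lower at an adjusted p under 0.05. The count was 0 with a pseudocount of 0.1, with no filter, with a filter at 5 FPKM and with the length trend removed. It was 2 after rescaling to a common total without mitochondrial genes. With 1 library left out, 0 to 2115 were lower and 0 to 511 higher, the upper ends without LKO 3. At an unadjusted p under 0.05, the lysosome genes lower in LKO numbered 10. They numbered 1 after median-ratio scaling, 3 with the length trend removed and 4 to 13 with 1 library left out. Quantile normalization gave 7, where 9.68% of all genes were lower. Rescaling to a common total without mitochondrial genes gave 14, where 30.1% of all genes were lower. Those higher numbered 0, and 1 with the length trend removed. The autophagy genes lower numbered 4, where 18.9% of all genes were lower. They numbered 1 after median-ratio scaling (7.96% of all genes), quantile normalization (9.68%) or removal of the length trend (9.11%). After rescaling to a common total without mitochondrial genes they numbered 7, a share of 33.3% near the 30.1% of all genes. With 1 library left out they numbered 1 to 13, where 8.41% to 33% of all genes were lower. Those higher numbered 0, and 2 after median-ratio scaling (10.2% of all genes) and 1 with the length trend removed (8.2%). The cause was not tested.

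The log2 fold change of some members turned its sign. After median-ratio scaling, Ctss was at 0.095, Ctsz at 0.24, Atp6v0d1 at 0.010, Tfeb at 0.18, Ulk1 at 0.17, Becn1 at 0.071, Wipi1 at 0.10, Wipi2 at 0.0019, Atg7 at 0.018, Atg16l1 at 0.063, Map1lc3a at 0.22 and Map1lc3b at 0.23. After quantile normalization, Ctss was at 0.016, Ctsz at 0.053, Tfeb at 0.19, Ulk1 at 0.15, Wipi1 at 0.10, Atg16l1 at 0.052, Map1lc3a at 0.11 and Map1lc3b at 0.12. After rescaling to a common total without mitochondrial genes, Atp6v1h was at -0.27, Tfe3 at -0.20 and Gabarapl2 at -0.17. The median of all genes was -0.46 in that setting. With the length trend removed, Tfeb was at 0.15, Ulk1 at 0.22, Becn1 at 0.086, Wipi1 at 0.14, Wipi2 at 0.044, Atg7 at 0.030, Atg16l1 at 0.082 and Map1lc3b at 0.23. With 1 library left out, values ran from -0.43 to 0.037 for Ctss, from -0.16 to 0.029 for Ctsz, from -0.054 to 0.12 for Atp6v1h, from -0.14 to 0.016 for Tfeb, from -0.19 to 0.20 for Tfe3, from -0.49 to 0.16 for Ulk1, from -0.26 to 0.026 for Wipi1, from -0.23 to 0.12 for Map1lc3a and from -0.0039 to 0.24 for Gabarapl2.

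The labels number the libraries 1 to 3 in each group. Same-numbered libraries correlated at -0.046, 0.17 and 0.07 in their deviations from the group means, so the numbers were not taken as pairs. With the library number as a block, 0 genes were lower and 0 higher at an adjusted p under 0.05 (limma). At an unadjusted p under 0.05, 8 lysosome genes (44.4%) and 5 autophagy genes (23.8%) were lower, against 20.1% of all genes. The autophagy share was thus near that of all genes. Only 3 libraries per group limit the precision, and the depth in reads is unknown.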

Other observations

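As for genes in general, the spread of these genes was mostly larger among the LKO than among the CON libraries. In both groups its median was below that of all genes. The median coefficient of variation of the lysosome genes was 20.0% in LKO and 11.1% in CON, and that of the autophagy genes 22.6% in LKO and 10.6% in CON. Over all genes tested it was 24.6% in LKO and 15.7% in CON. It was higher in LKO for 14 of 18 lysosome genes, 16 of 21 autophagy genes and 68.8% of all genes. Ulk1 had 54.7% in LKO against 4.19% in CON, Gabarapl1 48.3% against 9.59%, and Atp6v1a 45.1% against 13.5%. It was lower in LKO for Map1lc3b, with 5.28% in LKO and 8.11% in CON, and Sqstm1, with 8.60% in LKO and 21.9% in CON. The genes named here were picked after their values were seen, and the differences in spread were not tested.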
